A study of Mus musculus with 12 samples.

Results

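Among the genes measured by RNA sequencing in mouse hearts 9 h after pressure overload, 42 encode proteins of glucose uptake, glycolysis and pyruvate use. They were chosen by name, from what their products do, at a time when earlier results of these data were known. The rule itself uses no measured value. All 42 are among the 13552 genes of the expression table and among the 11240 genes that were tested. They comprise 2 glucose transporters, 18 genes of glycolysis, 6 of glycogen metabolism, 12 of lactate and pyruvate use, 2 of the pentose branch and 2 of the hexosamine branch.

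Transverse aortic constriction (TAC) is a surgical narrowing of the aorta that loads the left ventricle, and sham surgery omits the narrowing. Wild-type (WT) and knock-in (KI) mice had either sham surgery or TAC, with 3 mice in each of the 4 groups, all young adult C57BL/6 males collected 9 h after surgery. KI mice carry the Bcl-xL S14A mutation in the germ line, in both alleles and thus in every cell type. The mutation replaces a serine of the anti-apoptotic protein Bcl-xL that can be phosphorylated, and the study asked how its loss alters the response of the heart to pressure overload. KI mice descend from targeted embryonic stem cells, were crossed once with a ubiquitous Cre line to remove the selection cassette and were then backcrossed, whereas WT mice were bought, so that genotype and colony cannot be told apart. Nothing in the labels ties mice of different groups to each other, and p-values measure the spread between mice.

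The adult heart burns mainly fatty acids. It takes up glucose through GLUT4, which insulin and contraction bring to the cell surface, and through GLUT1, which is found there without them. Glucose is phosphorylated by hexokinases, committed to glycolysis by phosphofructokinase and converted to pyruvate, which either becomes lactate or is oxidized by pyruvate dehydrogenase in the mitochondrion. Many steps have a form typical of striated muscle and a form found in most tissues. Side branches lead to glycogen, to NADPH and pentoses, and through hexosamines to the sugar donor for O-GlcNAc on proteins.

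Each library held between 23651770 and 32454982 reads on genes, and the tested genes had a median of 664.5 reads per mouse. The deposited values are RPKM, which divide the reads of a gene by its exon length and by library size, so levels of different genes can be compared. Mice are listed throughout in the order WT sham 1, 2 and 3, WT TAC 7, 9 and 10, KI sham 1, 2 and 3, and KI TAC 5, 6 and 7. Fold changes are on the log2(RPKM + 1) scale, which understates those of genes near 1 RPKM, and stand with their standard error (SE). Adjusted p-values come from limma over all 11240 genes, with a threshold of 0.05. The share of reads on mitochondrial genes was 6.36% in WT sham mouse 1 and 9.76% to 12.5% in the others. Of the marker lists, all 9 cardiomyocyte genes were present, with summed levels of 17289.5 to 22938 RPKM in WT sham, 14126 to 24913 in WT TAC, 18652 to 22299 in KI sham and 17473 to 24220 in KI TAC. Markers of skeletal muscle and of atrial cardiomyocytes were not analysed here. In whole tissue, fewer cells of a type and less RNA per cell cannot be told apart.

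In sham hearts the most abundant members were muscle forms. Over the 6 sham mice, Aldoa, the muscle aldolase, stood highest at 641 ± 142 RPKM (SD, n = 6), followed by Pygm, muscle glycogen phosphorylase, at 583 ± 90.6, Eno3, muscle enolase, at 471 ± 89.2, and Pfkm, muscle phosphofructokinase, at 464 ± 76.2. The ranges of these 4 genes overlapped, so their order is not resolved. The lowest were Pfkfb3, at 2.73 ± 0.45, Gfpt2, at 1.82 ± 0.57, and Slc16a3, at 0.638 ± 0.086. Slc2a4, which encodes GLUT4, stood at 147 ± 18.7 RPKM and Slc2a1, which encodes GLUT1, at 15.1 ± 3.18, without overlap. The gene of the heart subunit of lactate dehydrogenase, Ldhb, at 369 ± 108, was above Ldha, the gene of the muscle subunit, at 137 ± 23.0, in every sham mouse.

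Between the genotypes, sham hearts gave no member call in either direction (background 0.0178% of genes higher and 0% lower; 1 member and 37 of all genes had an unadjusted limma p under 0.05, and limma-voom also called 0 members). That member was Pdk4, which encodes the pyruvate dehydrogenase kinase of fasting. It was at 28.4, 51.3 and 66.4 RPKM in WT sham and at 180.0, 104 and 133 in KI sham. The groups did not overlap, but the log2 difference of 1.54 (SE 0.64) did not pass across all genes (limma adjusted p = 1). Without overlap, 2 members were higher and 2 lower in KI sham (background 2.08% and 1.19%).

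After TAC in WT hearts, Slc2a4, Pfkm, Eno3, Pygm, Ldhb, Pdk2 and Pfkfb1 fell, while Slc2a1, Pfkp, Slc16a3 and G6pdx rose. Of the 42 members 4 were higher and 7 lower, where 6.96% of all tested genes were higher and 4.6% lower. The median log2 fold change of the members was -0.28, against 0.04 over all tested genes. In KI hearts 7 members were higher and 7 lower, against a background of 8.57% and 14.7%, and their median was -0.02, against -0.10 for all genes. Slc2a1, Pfkp and Slc16a3 were higher and Slc2a4 and Pfkfb1 lower in both genotypes. Past those, 1 member was higher and 5 lower in WT only, and 4 were higher and 5 lower in KI only, but a call in 1 genotype alone does not show a difference between genotypes. That difference was tested for each gene as the interaction of genotype and surgery. No member and no other gene passed by limma, while 7 of the 42 members and 14.8% of all genes had an unadjusted p under 0.05, and limma-voom also called 0 members. Without WT TAC mouse 7 the WT counts were 2 higher and 4 lower, and without KI sham mouse 2 the KI counts were 5 higher and 2 lower. In groups that did not overlap, 9 members were higher and 17 lower in WT (background 20% and 15%), and 8 higher and 10 lower in KI (background 13.6% and 24.7%).

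**Figure D1:**
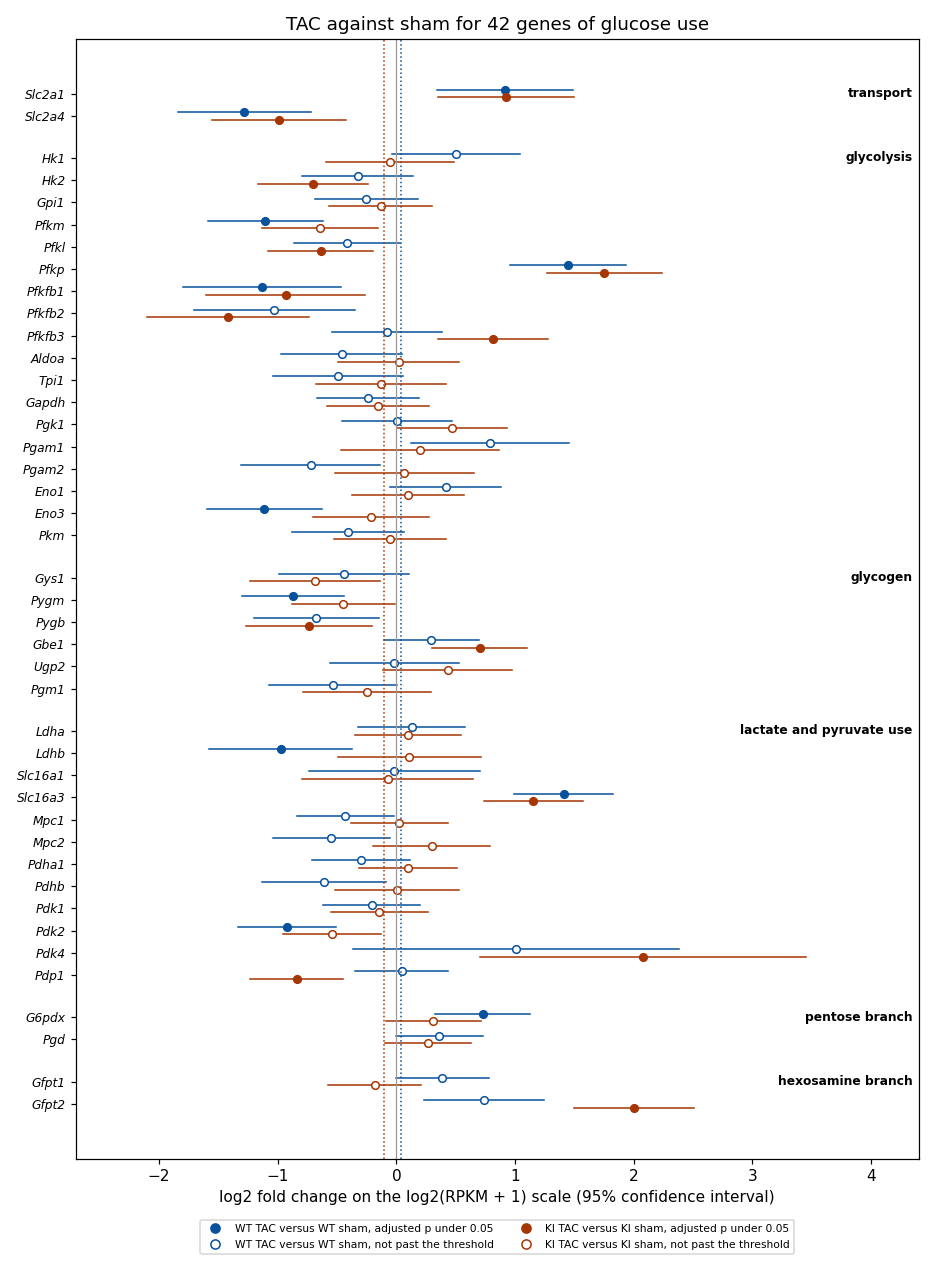
Log2 fold change after TAC for the 42 genes by step, in WT (blue) and KI (orange), on the log2(RPKM + 1) scale with 95% confidence intervals, 3 mice per group. Filled points have an adjusted p under 0.05 and dotted lines mark the median of all tested genes in each genotype. Slc2a1, Pfkp and Slc16a3 lie to the right and Slc2a4 and Pfkfb1 to the left in both genotypes, whereas Eno3 and Ldhb are filled in WT only and Pdk4, Pdp1 and Gfpt2 in KI only.

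Scaling mattered in the comparisons that involve KI TAC. Median-ratio scaling between libraries shifted the all-gene median (log2) from -0.10 to 0.03 in KI and from -0.12 to 0.03 between the TAC groups. Under it 10 members were higher and 3 lower in KI, where 13.8% and 11.3% of all genes were, and 3 higher and 9 lower in WT, where 6.48% and 6.42% were. Under quantile normalization 4 were higher and 8 lower in WT (background 6.68% and 7.2%) and 6 higher and 9 lower in KI (background 12.1% and 12.9%). No called member changed direction under median-ratio scaling or quantile normalization, and where either one ended a call, the value stands beside the gene.

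The 2 glucose transporters moved in opposite directions. Slc2a1 was at 18.0, 13.5 and 16.6 RPKM in WT sham and 35.5, 35.8 and 23.1 in WT TAC, and at 9.43, 17.3 and 16.0 in KI sham and 36.6, 27.5 and 19.7 in KI TAC. Every TAC mouse lay above every sham mouse of its genotype. The log2 fold change was 0.91 (SE 0.27, limma adjusted p = 0.0415) in WT and 0.92 (SE 0.27, adjusted p = 0.024) in KI, and the WT call was lost under median-ratio scaling (adjusted p = 0.0865) and without any 1 of 7 mice, WT sham 1, 2 and 3, WT TAC 7 and 9, KI sham 3 and KI TAC 6 (adjusted p up to 0.148). The KI call was lost without KI sham 1 or KI TAC 5 or 6 (adjusted p up to 0.0972).

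Slc2a4 was at 174, 148 and 137 RPKM in WT sham and 53.8, 48.2 and 91.8 in WT TAC, and at 119, 158 and 145 in KI sham and 51.2, 88.3 and 75.4 in KI TAC. Again no TAC mouse overlapped the sham mice of its genotype, and GLUT4 transcripts stayed the more abundant of the 2 in every heart. The gene fell by 1.28 (SE 0.26) on the log2 scale in WT (limma adjusted p = 0.00753) and by 0.99 (SE 0.26) in KI (adjusted p = 0.0155), the latter lost without KI sham 2 or 3 or KI TAC 5 (adjusted p up to 0.0681). A ratio of 2 genes within a heart is not altered by 1 scaling factor per library. Quantile normalization can alter it, and no ratio was recomputed under that scaling. The ratio of Slc2a1 to Slc2a4 had a geometric mean of 0.105 in WT sham and 0.498 in WT TAC, a 4.76-fold difference. In KI it was 0.0986 in sham and 0.387 in TAC, a 3.93-fold difference. TAC and sham did not overlap in either genotype (exact permutation p = 0.1 for each, two-sided, the smallest that 3 mice against 3 allow). The 2 TAC groups overlapped, at 0.252 to 0.742 in WT and 0.261 to 0.714 in KI.

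Of 9 other transport genes, 7 were tested, with 1 higher and 2 lower in WT and 1 higher and 3 lower in KI. Over all tested genes these shares were 6.96% and 4.6% in WT and 8.57% and 14.7% in KI. Tbc1d4, whose product AS160 holds GLUT4 vesicles inside the cell, was at 10.2, 8.80 and 7.03 RPKM in KI TAC, against 39.2, 20.6 and 31.3 in KI sham and 23.8, 22.2 and 25.4 in WT TAC. KI TAC overlapped neither group (log2 fold change -1.66 and -1.37, limma adjusted p = 0.000238 and 0.00549). Slc2a12 and Slc2a8, which encode further transporters, fell by 1.34 and 1.16 in KI and by 0.76 and 0.59 in WT. Arrdc4, an arrestin-like protein that lowers glucose uptake, rose by 0.83 in KI, and Slc2a10 rose by 0.75 in WT.

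The 18 genes of glycolysis had 1 call up and 3 down in WT (6.96% and 4.6% of all tested genes) and 2 up and 4 down in KI (8.57% and 14.7%). Pfkp, the platelet form of phosphofructokinase, was at 5.18, 3.42 and 3.32 RPKM in WT sham and 10.7, 15.6 and 11.2 in WT TAC, and at 5.65, 3.06 and 3.05 in KI sham and 13.3, 17.1 and 15.1 in KI TAC. Each TAC group lay wholly above its sham group, with log2 fold changes of 1.45 (SE 0.23, limma adjusted p = 0.00164) and 1.75 (SE 0.23, adjusted p = 0.000209). Pfkm, the muscle form of the same enzyme, was at 589, 404 and 421 RPKM in WT sham and 199.7, 201 and 249.9 in WT TAC, and at 386, 501 and 484 in KI sham and 273, 374 and 240.0 in KI TAC. TAC and sham did not overlap in either genotype, and the fall of 1.10 (SE 0.23) in WT passed (limma adjusted p = 0.00771). In KI the log2 fold change was -0.64 (SE 0.23, limma adjusted p = 0.0555), and it passed under quantile normalization (-0.83, adjusted p = 0.0074) and limma-voom (adjusted p = 0.0483). Of Pfkm's exon length, 10.2% is shared with Gm26513 on the same strand, which gene counting may split.

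The ratio of Pfkp to Pfkm was thus higher after TAC in both genotypes. It rose from a geometric mean of 0.00837 to 0.0573 in WT, 6.84-fold, and from 0.00826 to 0.0519 in KI, 6.29-fold, without overlap (exact permutation p = 0.1 for each). Pfkl, the liver form, stood at 32.0, 27.3 and 26.3 RPKM in WT sham and 18.7, 19.3 and 25.8 in WT TAC, and at 22.2, 37.5 and 31.9 in KI sham and 17.7, 21.1 and 17.9 in KI TAC. Its fall of 0.64 (SE 0.21) in KI passed (limma adjusted p = 0.0397), but not under median-ratio scaling (adjusted p = 0.091), in a fit of the KI groups alone, or without any 1 of WT sham 2 and 3, WT TAC 7, KI sham 2 and 3 and KI TAC 5, 6 and 7 (adjusted p up to 0.136).

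Among the bifunctional enzymes that make and break fructose 2,6-bisphosphate, the activator of phosphofructokinase, the forms diverged. Pfkfb2, the heart form, was at 7.89, 7.08 and 9.56 RPKM in WT sham and 2.55, 1.82 and 7.93 in WT TAC, and at 7.11, 6.40 and 8.10 in KI sham and 1.60, 2.25 and 2.39 in KI TAC. WT TAC mouse 10 stayed within the sham range, while all 3 KI TAC mice lay below it. The fall of 1.42 (SE 0.32) in KI passed (limma adjusted p = 0.00618), and the WT log2 fold change of -1.03 (SE 0.32) was at an adjusted p of 0.0508 and past the threshold under median-ratio scaling (adjusted p = 0.0303). Pfkfb2 shares 17.4% of its exon length with Gm29427 on the same strand.

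Pfkfb3, the inducible form with the highest kinase activity, was at 3.56, 2.72 and 2.70 RPKM in WT sham and 2.93, 2.83 and 2.54 in WT TAC, and at 2.40, 2.27 and 2.75 in KI sham and 8.37, 4.08 and 3.76 in KI TAC. All 3 KI TAC hearts stood above the other 9, and KI TAC mouse 5 was highest. It rose by 0.81 (SE 0.22, limma adjusted p = 0.0159) in KI, just missing without KI sham mouse 2 (adjusted p = 0.0502). Against WT TAC the difference was 0.70 (SE 0.22, limma adjusted p = 0.0531), past the threshold under median-ratio scaling (adjusted p = 0.0492), quantile normalization (adjusted p = 0.0471) and limma-voom (adjusted p = 0.0476). Within hearts, Pfkfb3 to Pfkfb2 ran from 0.282 to 0.451 in WT sham and 0.337 to 0.354 in KI sham, and from 1.57 to 5.24 in KI TAC, which did not overlap KI sham or the 0.320 to 1.56 of WT TAC. Pfkfb1, the liver and muscle form, was at 3.87, 5.89 and 4.32 RPKM in WT sham and 1.02, 2.56 and 1.36 in WT TAC, and at 3.48, 5.03 and 6.70 in KI sham and 0.953, 3.99 and 2.06 in KI TAC. It fell by 1.13 (SE 0.31, limma adjusted p = 0.0308) in WT and by 0.93 (SE 0.31, adjusted p = 0.0439) in KI, where the groups overlapped and the call was lost under median-ratio scaling (adjusted p = 0.0826), quantile normalization (adjusted p = 0.0827) and without WT sham 2 or 3, KI sham 2 or 3 or KI TAC 5 or 7 (adjusted p up to 0.178). The WT call was lost without any WT sham mouse or WT TAC 7 or 10 (adjusted p up to 0.132).

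Hk2, the insulin-regulated hexokinase of muscle, was at 69.9, 62.5 and 67.1 RPKM in WT sham and 65.3, 42.7 and 52.8 in WT TAC, and at 46.2, 61.9 and 53.8 in KI sham and 24.2, 37.4 and 38.1 in KI TAC. KI TAC lay below every other mouse, and the fall of 0.70 (SE 0.22) from KI sham passed (limma adjusted p = 0.0323) but missed under median-ratio scaling (adjusted p = 0.0507) and in a fit of the KI groups alone, and was lost without KI sham 2 or 3 or KI TAC 5 (adjusted p up to 0.128). Hk1, the hexokinase of most tissues, was at 29.6, 17.1 and 21.04 RPKM in WT sham and 29.0, 24.2 and 44.8 in WT TAC, and at 17.3, 21.2 and 19.5 in KI sham and 15.9, 16.8 and 23.7 in KI TAC, with no call. The ratio of Hk1 to Hk2 was 1.81-fold higher after TAC in WT and 1.58-fold higher in KI, without overlap (exact permutation p = 0.1 for each). Its highest value was in WT TAC mouse 10, in which the summed fibroblast markers were also highest, at 753 RPKM against 126 to 331 in the other 11 hearts, and their part in it was not tested.

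**Figure D2:**
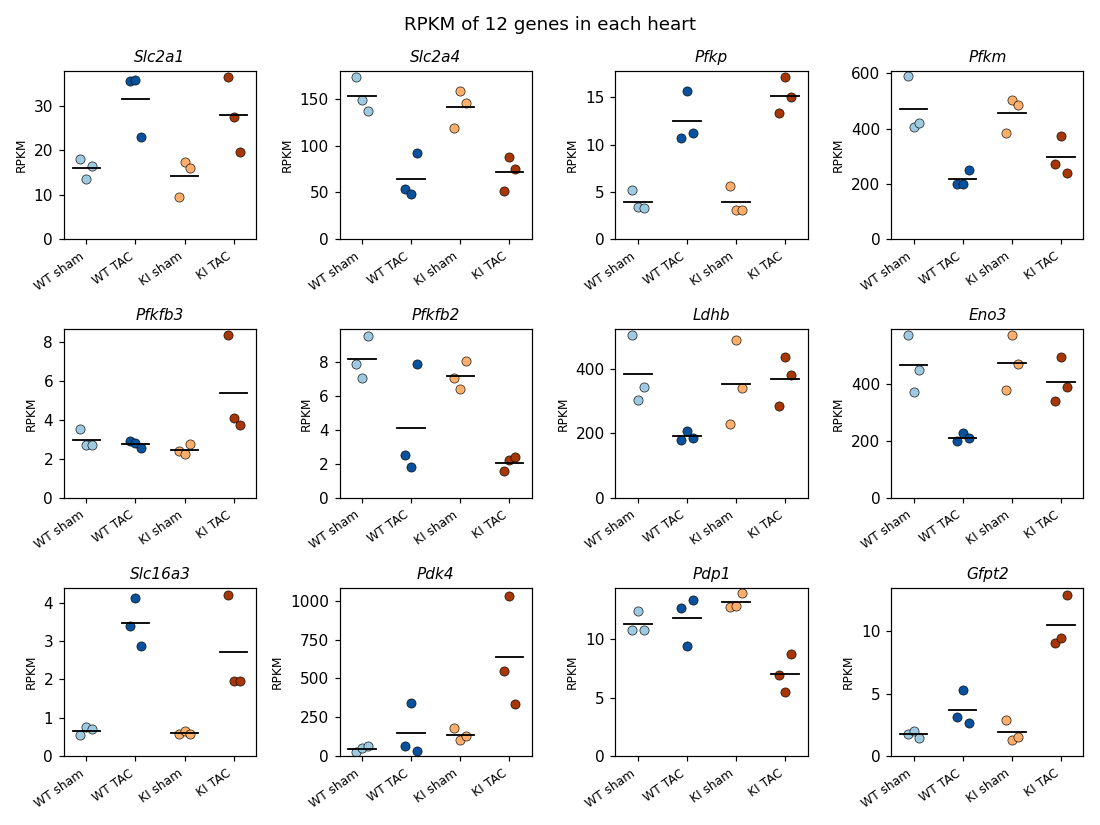
RPKM of 12 of the genes in each of the 12 hearts, on linear axes from 0, with 1 point per mouse and a line at the mean of each group of 3. Slc2a1, Pfkp and Slc16a3 are higher in both TAC groups, Ldhb and Eno3 are low in WT TAC, and Pfkfb3, Pdk4 and Gfpt2 have their group means highest in KI TAC. Pfkfb2 of WT TAC mouse 10 and Pdk4 of WT TAC mouse 9 lie apart from the other WT TAC mice.

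In the later steps of glycolysis, Eno3, muscle enolase, was at 574, 374 and 452 RPKM in WT sham and 199, 227 and 211 in WT TAC, and at 379, 575 and 470.2 in KI sham and 341, 495 and 389.6 in KI TAC. The WT TAC mice lay below all other hearts, while KI TAC overlapped both sham groups. It fell by 1.11 (SE 0.23, limma adjusted p = 0.00741) in WT and was higher by 0.93 (SE 0.23, adjusted p = 0.0238) in KI TAC than in WT TAC, the latter lost without WT TAC 7 or 10 or KI TAC 6 (adjusted p up to 0.108). The interaction was 0.90 (SE 0.32, limma adjusted p = 0.235). Eno1, the enolase of most tissues, was at 26.0, 20.6 and 18.2 RPKM in WT sham and 27.6, 24.2 and 35.8 in WT TAC, and at 19.8, 26.8 and 21.04 in KI sham and 20.1, 22.0 and 31.2 in KI TAC, with no call.

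Phosphoglycerate mutase was not called at the deposited scaling. Pgam2, its muscle form, was at 350.2, 229 and 226 RPKM in WT sham and 146, 134 and 204 in WT TAC, and at 212, 395 and 258 in KI sham and 236, 349 and 301 in KI TAC. Pgam1 was at 14.2, 19.1 and 17.1 RPKM in WT sham and 29.3, 25.0 and 35.1 in WT TAC, and at 16.0, 18.3 and 12.5 in KI sham and 11.1, 15.0 and 33.8 in KI TAC. In WT the groups did not overlap for either gene, with log2 fold changes of -0.72 (SE 0.27, limma adjusted p = 0.104) for Pgam2 and 0.79 (SE 0.31, adjusted p = 0.115) for Pgam1. Pgam2 was higher in KI TAC than in WT TAC without overlap by 0.88 (SE 0.27, limma adjusted p = 0.0538), which passed under median-ratio scaling (1.07, adjusted p = 0.0232) and limma-voom (adjusted p = 0.0456). KI TAC mouse 7 alone among the KI TAC mice reached the Pgam1 level of WT TAC.

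The ratios between forms in each heart set these values side by side. Eno1 to Eno3 ran from 0.0402 to 0.0553 in WT sham, 0.107 to 0.170 in WT TAC, 0.0447 to 0.0522 in KI sham and 0.0443 to 0.0802 in KI TAC. The WT rise was 2.92-fold without overlap, the KI groups overlapped at 1.25-fold, and KI TAC lay wholly below WT TAC. Pgam1 to Pgam2 rose 2.93-fold in WT, from 0.0635 to 0.186 as geometric means, and was 0.0553 and 0.0609 in KI sham and KI TAC. Pfkl to Pfkm rose 1.59-fold in WT, from 0.0612 to 0.0974, and was 0.0658 and 0.0649 in KI, with KI TAC again wholly below WT TAC. Each of these comparisons without overlap had an exact permutation p of 0.1.

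Whether the ratios changed differently in the genotypes was tested by permuting genotype labels within sham and within TAC. For Eno1 to Eno3 the log2 change in KI minus that in WT was -1.23 (exact permutation p = 0.045), for Pfkl to Pfkm it was -0.69 (p = 0.025) and for Pgam1 to Pgam2 it was -1.41 (p = 0.14). These p-values are not adjusted for the 15 pairs of forms tested, the smallest possible was 0.005, and the test was added after the ratios had been seen.

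The remaining enzymes of the trunk gave no call at the deposited scaling, while under median-ratio scaling Pgk1 was called higher in KI (0.63, limma adjusted p = 0.0189) and in KI TAC against WT TAC (0.61, adjusted p = 0.0413). Gpi1, Aldoa, Tpi1, Gapdh, Pgk1 and Pkm had log2 fold changes of -0.49 to 0.01 in WT and -0.16 to 0.46 in KI. Gapdh, often used as a reference gene, was at 252 to 306 RPKM in WT sham, 229.8 to 251 in WT TAC, 247 to 327 in KI sham and 208 to 308 in KI TAC. Splice forms of Pkm are not separated by these gene-level values, and several of these genes have processed copies in the genome that can take or give reads. Of 14 other glycolytic genes, 8 were tested, with the same all-gene shares of 6.96% and 4.6% in WT and 8.57% and 14.7% in KI. In WT, Hk3, a hexokinase of blood cells, rose by 0.51, though it reached 1 RPKM in the WT TAC mice alone and was tested only through them, and Fbp2, muscle fructose bisphosphatase, fell by 0.66. In KI, Adpgk, which phosphorylates glucose with ADP, rose by 1.15.

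**Figure D3:**
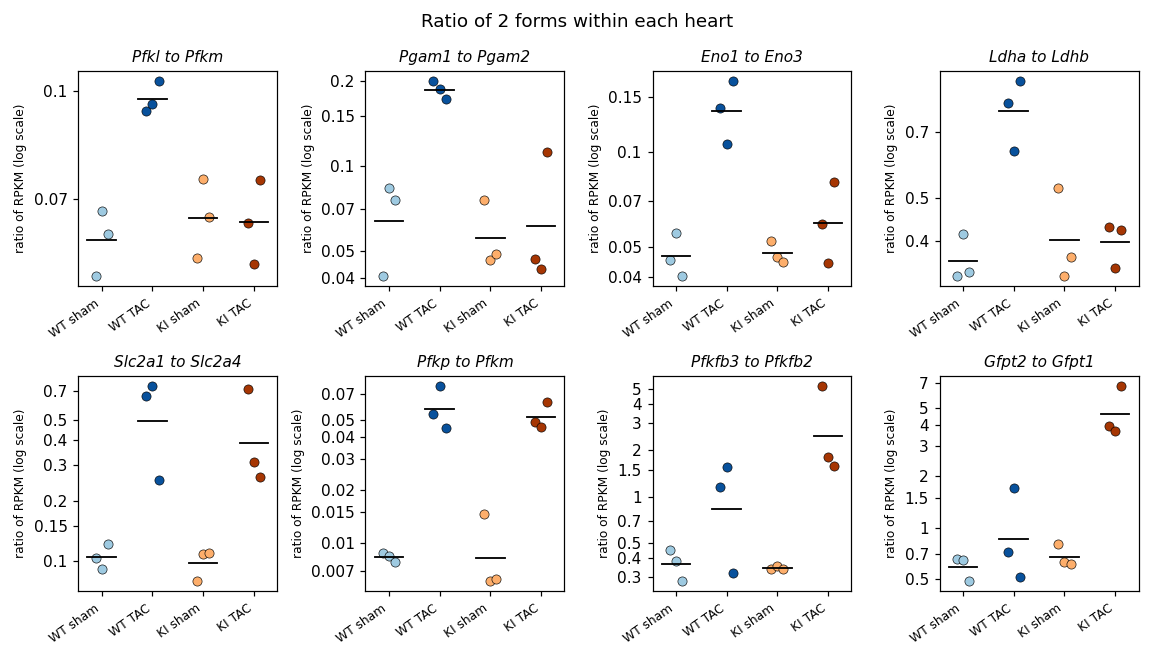
Ratio of the RPKM of 2 forms of an enzyme or transporter within each heart, on logarithmic axes, with 1 point per mouse and a line at the geometric mean of each group of 3. In the upper row the WT TAC mice stand above the other 3 groups for Pfkl to Pfkm, Pgam1 to Pgam2, Eno1 to Eno3 and Ldha to Ldhb. In the lower row both TAC groups stand above sham for Slc2a1 to Slc2a4 and Pfkp to Pfkm, and KI TAC stands highest for Pfkfb3 to Pfkfb2 and Gfpt2 to Gfpt1.

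Of the 6 glycogen genes, 1 was lower in WT (4.6% of all tested genes), and 1 was higher and 1 lower in KI (8.57% and 14.7%). Pygm, which releases glucose 1-phosphate from glycogen, was at 737, 499 and 569 RPKM in WT sham and 317, 353 and 303 in WT TAC, and at 487, 600.1 and 605 in KI sham and 382, 467 and 391 in KI TAC. No TAC mouse reached the sham mice of its genotype, and the fall was 0.87 (SE 0.20, limma adjusted p = 0.0135; 0.0573 without WT TAC mouse 7) in WT, with -0.45 (SE 0.20, adjusted p = 0.123) in KI, where it passed under quantile normalization (-0.60, adjusted p = 0.0104). Pygb, the brain form of the enzyme, was at 408, 309 and 366 RPKM in WT sham and 195, 179.8 and 323 in WT TAC, and at 209.6, 259 and 293 in KI sham and 129, 183 and 145 in KI TAC. Its difference in WT, -0.67 (SE 0.25), did not pass (limma adjusted p = 0.0924), but did under median-ratio scaling (-0.72, adjusted p = 0.0499). Its fall of 0.74 (SE 0.25) in KI passed (limma adjusted p = 0.0445) but not under median-ratio scaling (adjusted p = 0.075), in a fit of the KI groups alone, or without WT sham 2 or 3, WT TAC 7, KI sham 2 or 3 or KI TAC 5 or 7 (adjusted p up to 0.163). Relative to Pygm it was lower in KI sham than in WT sham, at 0.430 to 0.484 against 0.554 to 0.643, and lower again in KI TAC, at 0.337 to 0.392, without overlap.

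Gbe1, the branching enzyme, was at 5.84, 6.84 and 6.35 RPKM in WT sham and 6.92, 8.10 and 9.05 in WT TAC, and at 7.57, 6.57 and 6.38 in KI sham and 9.06, 15.6 and 11.3 in KI TAC. All 3 KI TAC mice lay above the other 9, and the rise of 0.70 (SE 0.19) in KI passed (limma adjusted p = 0.0161) but not without KI sham 3 or KI TAC 6 (adjusted p up to 0.07). Gys1, glycogen synthase, Ugp2, which makes UDP-glucose, and Pgm1, phosphoglucomutase (ENSMUSG00000025791), gave no call, with log2 fold changes of -0.54 to -0.02 in WT and -0.69 to 0.43 in KI. Of 23 other glycogen genes 19 were tested, with 2 lower in WT (4.6% of all genes) and 1 higher and 3 lower in KI (8.57% and 14.7%). Phkg1, the catalytic subunit of muscle phosphorylase kinase, fell by 1.13 in WT and fell by 1.16 in KI. Epm2a, the glycogen phosphatase laforin, fell by 0.84 in WT. In KI, Gaa, the lysosomal glucosidase, fell by 0.85, and Pgm2 rose by 0.64.

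Of the 12 genes of lactate and pyruvate use, 1 was higher and 2 were lower in WT (6.96% and 4.6% of all tested genes), and 2 were higher and 1 lower in KI (8.57% and 14.7%). Slc16a3, which encodes the lactate exporter MCT4, was at 0.544, 0.763 and 0.700 RPKM in WT sham and 3.39, 4.11 and 2.87 in WT TAC, and at 0.577, 0.667 and 0.574 in KI sham and 4.20, 1.97 and 1.95 in KI TAC. The fewest reads behind any of these values were 75, in KI sham, and every TAC mouse was above every sham mouse. All 6 sham mice were under 1 RPKM, so the gene entered the test only through the TAC mice in which it was high. It rose by 1.41 (SE 0.20, limma adjusted p = 0.000693) in WT and 1.15 (SE 0.20, adjusted p = 0.00119) in KI. Slc16a1, which encodes MCT1, was at 40.5, 45.5 and 40.2 RPKM in WT sham and 36.6, 33.9 and 57.4 in WT TAC, and at 37.7, 45.5 and 44.2 in KI sham and 20.2, 46.7 and 68.0 in KI TAC, and was called in neither. MCT1 transcripts outnumbered those of MCT4 per length in every heart. The ratio of Slc16a3 to Slc16a1 was 5.23-fold higher after TAC in WT and 4.42-fold higher in KI, without overlap.

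Markers of other cell types also differed between the groups. The 3 neutrophil genes present of a list of 6 summed to 0.508 to 1.27 RPKM in WT sham, 3.69 to 9.87 in WT TAC, 0.395 to 0.505 in KI sham and 4.18 to 20.3 in KI TAC, with S100a8 and S100a9 listed at 0 in some mice. After TAC 2 of the 3 were called higher in WT and all 3 in KI. Their sum was under 1 RPKM in every sham mouse but WT sham 1. None of the 3 could thus enter the test without TAC mice, in which the sums were higher. The 7 macrophage genes summed to 78.6 to 102 RPKM in WT sham, 97.3 to 174 in WT TAC, 82.3 to 97.5 in KI sham and 96.5 to 121 in KI TAC. In WT 2 of them were called higher after TAC, and in KI 1 was called lower, or 3 higher and 0 lower under median-ratio scaling. Their part in the rise of Slc16a3, Pfkp and G6pdx, which such cells also express, was not tested. The 7 smooth muscle or pericyte genes summed to 165 to 193 RPKM in WT sham and 206 to 287 in WT TAC, without overlap and with 1 gene called higher, and to 154 to 226.5 in KI sham and 165 to 235 in KI TAC, with none called. The 5 erythroid genes present of a list of 6 summed to 145 to 171 RPKM in WT sham and 74.8 to 114 in WT TAC, also without overlap, and to 134 to 244 in KI sham and 97.7 to 257 in KI TAC, with none called after TAC in either genotype. Of the 9 cardiomyocyte genes, 1 was called lower after TAC in WT, also under median-ratio scaling, and 1 in KI, where none was called under that scaling. Of the 7 fibroblast genes, 1 was called lower in KI and none in WT, or none in KI and 1 higher in WT under median-ratio scaling. Of the 7 endothelial genes none was called after TAC, or 1 higher in KI under median-ratio scaling. Over all tested genes, 6.96% were called higher and 4.6% lower in WT, and 8.57% and 14.7% in KI. Under median-ratio scaling these shares were 6.48% and 6.42% in WT, and 13.8% and 11.3% in KI. The part of these markers in the falls and rises of the members after TAC was not tested.

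Ldhb, whose subunit favours the use of lactate, was at 508, 303 and 345 RPKM in WT sham and 179, 208 and 187 in WT TAC, and at 229.8, 489 and 341 in KI sham and 286, 439 and 382 in KI TAC. WT TAC lay below all other hearts, whereas KI TAC lay within the range of the sham mice. It fell by 0.97 (SE 0.28, limma adjusted p = 0.0385) in WT, a call lost without any 1 of the WT mice or KI sham mouse 3 (adjusted p up to 0.137). KI TAC was above WT TAC by 0.93 (SE 0.28, adjusted p = 0.0493), a call lost in 12 of 18 alternatives. Among them were quantile normalization (adjusted p = 0.0615) and the omission of any TAC mouse, WT sham mouse 2 or 3 or KI sham mouse 3 (adjusted p up to 0.177). Ldha was at 169.6, 126 and 118 RPKM in WT sham and 145, 132 and 171 in WT TAC, and at 120.5, 164 and 126 in KI sham and 123, 153 and 161 in KI TAC, with no call. Ldha to Ldhb ran from 0.334 to 0.415 in WT sham and 0.637 to 0.913 in WT TAC, a 2.15-fold rise without overlap, and from 0.334 to 0.524 in KI sham and 0.349 to 0.429 in KI TAC. The change in KI minus that in WT was -1.12 on the log2 scale (exact permutation p = 0.03, unadjusted over the 15 pairs).

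No gene of the mitochondrial pyruvate carrier or of pyruvate dehydrogenase was called in WT, with log2 fold changes of -0.61 for Pdhb, -0.55 for Mpc2, -0.43 for Mpc1 and -0.30 for Pdha1 (limma adjusted p of 0.123 to 0.332). Mpc2, a carrier subunit, was at 31.3, 20.9 and 18.9 RPKM in WT sham and 15.0, 15.7 and 15.8 in WT TAC, and at 19.4, 35.1 and 24.4 in KI sham and 27.8, 35.7 and 31.8 in KI TAC. WT TAC did not overlap any other group, and KI TAC was higher than WT TAC by 0.98 (SE 0.23, limma adjusted p = 0.0206), though not without WT TAC 7 or KI TAC 6 (adjusted p up to 0.093). Mpc1, the other subunit, was at 80.6, 72.6 and 67.3 RPKM in WT sham and 52.6, 55.9 and 53.8 in WT TAC, and at 65.0, 85.4 and 63.7 in KI sham and 57.8, 80.6 and 79.8 in KI TAC. Pdhb, the beta subunit of pyruvate dehydrogenase, was at 76.1, 46.3 and 59.2 RPKM in WT sham and 37.5, 31.9 and 47.9 in WT TAC, and at 58.5, 78.6 and 58.6 in KI sham and 49.9, 83.1 and 65.6 in KI TAC. For these 2 genes, and for Pdha1, the alpha subunit, at 128 to 156 RPKM in WT TAC and 156 to 239 in KI TAC, the difference between KI TAC and WT TAC was 0.40 to 0.73 and passed under median-ratio scaling alone of the 3 scalings.

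Pyruvate dehydrogenase is switched off by its kinases and on by its phosphatases. Pdk2, the kinase of most tissues, was at 288, 237 and 244 RPKM in WT sham and 128, 147 and 128 in WT TAC, and at 192, 266 and 267 in KI sham and 160.2, 183 and 150.2 in KI TAC. No TAC mouse reached the sham mice of its genotype, and the fall of 0.92 (SE 0.19) in WT passed (limma adjusted p = 0.00819), with -0.54 (SE 0.19, adjusted p = 0.0563) in KI, where it passed under quantile normalization (-0.65, adjusted p = 0.0074) and limma-voom (adjusted p = 0.0487). Pdk1, the hypoxia-inducible kinase, was at 18.5, 18.6 and 20.8 RPKM in WT sham and 16.0, 17.1 and 16.6 in WT TAC, and at 14.7, 17.4 and 20.5 in KI sham and 13.5, 20.95 and 13.6 in KI TAC, with no call.

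Pdk4 was at 65.8, 344 and 35.2 RPKM in WT TAC and at 549, 1033 and 339 in KI TAC, beside the sham values given above. WT TAC mouse 9 stood apart from the other WT TAC mice and just above the lowest KI TAC mouse, so that the TAC groups overlapped, while each KI TAC mouse was above all 6 sham mice. Relative to KI sham, KI TAC was higher by 2.08 (SE 0.64, limma adjusted p = 0.0315) and relative to WT TAC by 2.62 (SE 0.64, adjusted p = 0.0237), the former lost under quantile normalization (adjusted p = 0.0687). Leaving out KI TAC mouse 5 or 6 ended both calls, as did KI sham mouse 2 or 3 for the first and WT TAC mouse 7 or 10 for the other (adjusted p up to 0.12 and 0.11). The interaction was 1.08 (SE 0.91) and did not pass, so a difference between the genotypes in the response to TAC was not shown.

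Pdp1, the calcium-sensitive phosphatase that turns pyruvate dehydrogenase on, was at 10.8, 12.4 and 10.8 RPKM in WT sham and 12.6, 9.41 and 13.4 in WT TAC, and at 12.8, 12.9 and 13.96 in KI sham and 6.93, 5.48 and 8.69 in KI TAC. All 3 KI TAC mice were below the other 9. It fell by 0.84 (SE 0.18, limma adjusted p = 0.0053) in KI and was lower than in WT TAC by 0.68 on the log2 scale (difference -0.68, SE 0.18, adjusted p = 0.0328), the latter lost under median-ratio scaling (adjusted p = 0.0564) and without WT TAC 7 or 10, KI sham 3 or KI TAC 5 or 6 (adjusted p up to 0.145). The interaction was -0.88 (SE 0.26, limma adjusted p = 0.163). Of 17 other genes of this step 14 were tested, with 4 lower in WT (4.6% of all genes), 3 lower in KI (14.7%) and none higher. They were Pdp2, the insulin-responsive phosphatase, which fell by 1.34 in WT and fell by 2.02 in KI, Gpt2 and Gpt, the alanine aminotransferases, which fell by 1.62 and 1.26 in WT and by 1.19 and 0.84 in KI, and Ldhd, the D-lactate dehydrogenase, which fell by 0.78 in WT.

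Of the 2 genes of the pentose branch, G6pdx, its first and rate-limiting enzyme, was at 3.19, 2.76 and 2.60 RPKM in WT sham and 5.52, 4.69 and 5.95 in WT TAC, and at 3.17, 2.89 and 2.58 in KI sham and 2.96, 3.25 and 5.61 in KI TAC. In WT the groups did not overlap and the rise of 0.73 (SE 0.19) passed (limma adjusted p = 0.0227), but not without WT sham 2 or 3 or WT TAC 7 or 10 (adjusted p up to 0.0847). On the opposite strand, Ikbkg covers 13.6% of the exon length of G6pdx, and whether counting used strand is not given in the sources used here. In KI only mouse 7 reached the WT TAC range. Pgd, which follows it, had log2 fold changes of 0.36 in WT and 0.27 in KI and was not called. Under median-ratio scaling both genes were called higher in KI, G6pdx by 0.44 (limma adjusted p = 0.0414) and Pgd by 0.40 (adjusted p = 0.0386). None of the 8 other pentose genes tested was called in either genotype, while 1 was higher in KI under median-ratio scaling.

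The hexosamine branch begins with glutamine fructose 6-phosphate amidotransferase, whose 2 forms parted in KI TAC. Gfpt2 was at 1.79, 1.99 and 1.44 RPKM in WT sham and 3.15, 5.32 and 2.62 in WT TAC, and at 2.86, 1.29 and 1.55 in KI sham and 9.04, 9.43 and 12.9 in KI TAC. KI TAC lay above all other hearts. It rose by 2.002 (SE 0.23, limma adjusted p = 0.000123) in KI, and by 1.31 (SE 0.23, adjusted p = 0.00727) it exceeded WT TAC, where its log2 fold change against WT sham was 0.74 (SE 0.23, adjusted p = 0.0564). The interaction was 1.26 (SE 0.33, limma adjusted p = 0.15), and without WT TAC mouse 9 it passed (adjusted p = 0.0286).

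Gfpt1, the other form, was at 2.75, 3.06 and 2.98 RPKM in WT sham and 4.37, 3.13 and 5.10 in WT TAC, and at 3.58, 2.05 and 2.53 in KI sham and 2.29, 2.54 and 1.90 in KI TAC. KI TAC was below WT TAC without overlap (log2 difference -0.67, SE 0.18, limma adjusted p = 0.0341), but not past the threshold under median-ratio scaling (adjusted p = 0.0673) or quantile normalization (adjusted p = 0.064), or without WT sham 3, WT TAC 7 or 10, KI sham 3 or any KI TAC mouse (adjusted p up to 0.131). Gfpt2 to Gfpt1 ran from 0.484 to 0.652 in WT sham, 0.514 to 1.70 in WT TAC, 0.614 to 0.799 in KI sham and 3.71 to 6.78 in KI TAC. Of 10 other hexosamine genes 8 were tested, with none called in WT, and 1 higher and 1 lower in KI (8.57% and 14.7% of all genes). Uap1, which makes UDP-GlcNAc, was at 24.0, 21.4 and 19.2 RPKM in KI TAC, against 9.46, 9.10 and 8.67 in KI sham and 11.8, 12.5 and 10.6 in WT TAC. It exceeded both groups without overlap, by 1.15 and 0.83 (limma adjusted p = 0.000209 and 0.00757). Gnpda1, which runs the first step backwards, fell by 0.71 in KI.

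Between the TAC groups as a whole, 5 members were higher in KI TAC, namely Pdk4, Gfpt2, Mpc2, Eno3 and Ldhb, and 2 lower, Pdp1 and Gfpt1, against a background of 2.92% higher and 8.13% lower. The median difference of the members was 0.27, against -0.12 for all genes. Under median-ratio scaling 12 were higher and none lower (background 6.7% and 4.74%), and under quantile normalization 5 were higher and 1 lower (background 4.65% and 5.45%). Without overlap, 13 members were higher and 4 lower (background 10.1% and 19.4%). Of the 9 cardiomyocyte markers, 2 were also called higher in KI TAC than in WT TAC and 0 lower, and 4 higher under median-ratio scaling. Under both scalings 2 of the 7 macrophage genes and 1 of the 7 smooth muscle or pericyte genes were called lower in KI TAC, and 2 of the 5 erythroid genes were called higher under median-ratio scaling alone. The part of these markers in the differences was not tested. A fit of the TAC groups alone called 2 higher, Gfpt2 and Mpc2, and 0 lower, and without WT TAC 7 or KI TAC 6 the fit of all groups called 1 higher and 0 lower. Gfpt2 was the member called in all 19 alternatives.

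**Figure D4:**
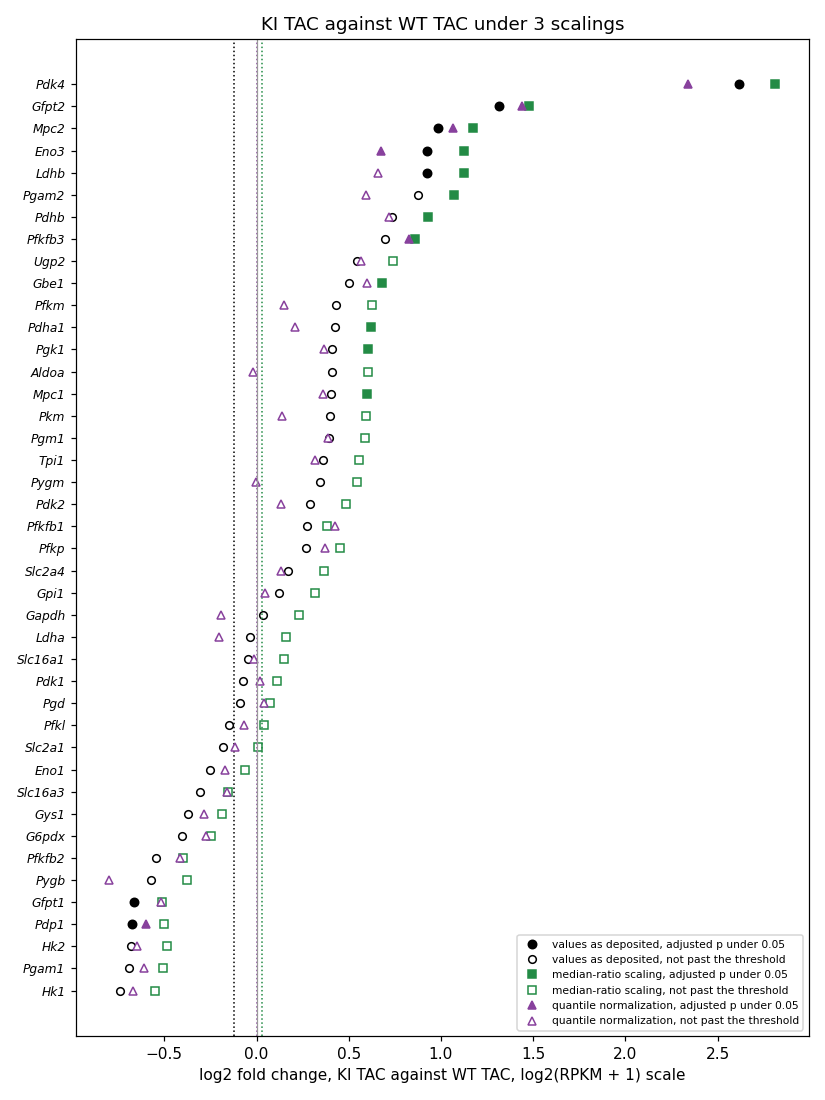
Log2 difference between KI TAC and WT TAC for the 42 genes under the deposited scaling (circles), median-ratio scaling (squares) and quantile normalization (triangles), on the log2(RPKM + 1) scale, 3 mice per group. Filled symbols have an adjusted p under 0.05 and dotted lines mark the median of all tested genes. Squares lie to the right of the circles throughout, Pdk4, Gfpt2, Mpc2 and Eno3 are filled under all 3, and Ldhb, Pdp1 and Gfpt1 are filled under some.

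The starts of 3 genes that rose in both genotypes, Slc2a1, Pfkp and Slc16a3, and of 2 that rose in KI, Pdk4 and Gfpt2, are shown because each holds the core letters of the element bound by hypoxia-inducible factors. They were chosen for those letters and are not all the genes that rose. Gbe1, which also rose in KI, holds neither ACGTG nor GCGTG in the RefSeq window, while G6pdx, which rose in WT, and both starts of Pfkfb3, which rose in KI, hold at least one. The letters also stand at genes that fell. Pfkm, Eno3, Pygm, Ldhb, Pdk2 and Pfkfb1, which fell in WT, hold one or both in at least 1 start. So do Hk2, Pfkl, Pfkfb2 and Pygb, which fell in KI. The sequences are the 250 bases before the RefSeq start in GRCm38.p6, 5′ to 3′ on the strand of the gene, with ACGTG or GCGTG on either strand in capitals.
Slc2a1, chr4:119108495-119108744, plus strand: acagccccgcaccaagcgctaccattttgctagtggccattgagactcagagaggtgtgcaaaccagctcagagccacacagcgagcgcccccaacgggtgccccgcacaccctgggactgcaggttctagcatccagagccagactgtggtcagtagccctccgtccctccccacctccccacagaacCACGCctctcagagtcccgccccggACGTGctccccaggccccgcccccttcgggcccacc
Pfkp, chr13:6648772-6649021, minus strand: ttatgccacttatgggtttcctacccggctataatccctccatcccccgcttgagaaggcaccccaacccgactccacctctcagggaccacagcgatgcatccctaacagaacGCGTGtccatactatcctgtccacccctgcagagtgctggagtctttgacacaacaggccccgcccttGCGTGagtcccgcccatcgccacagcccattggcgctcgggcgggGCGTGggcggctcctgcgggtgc
Slc16a3, chr11:120948817-120949066, plus strand: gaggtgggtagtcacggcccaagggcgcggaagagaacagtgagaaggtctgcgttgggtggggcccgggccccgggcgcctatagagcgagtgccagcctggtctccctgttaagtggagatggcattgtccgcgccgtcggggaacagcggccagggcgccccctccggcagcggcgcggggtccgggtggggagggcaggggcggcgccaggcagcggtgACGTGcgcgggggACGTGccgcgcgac
Pdk4, chr6:5496279-5496528, minus strand: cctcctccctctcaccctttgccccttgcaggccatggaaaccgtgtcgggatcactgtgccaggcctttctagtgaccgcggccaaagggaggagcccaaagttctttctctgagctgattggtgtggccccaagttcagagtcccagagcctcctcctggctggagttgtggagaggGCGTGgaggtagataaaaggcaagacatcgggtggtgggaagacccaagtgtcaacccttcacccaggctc
Gfpt2, chr11:49793905-49794154, plus strand: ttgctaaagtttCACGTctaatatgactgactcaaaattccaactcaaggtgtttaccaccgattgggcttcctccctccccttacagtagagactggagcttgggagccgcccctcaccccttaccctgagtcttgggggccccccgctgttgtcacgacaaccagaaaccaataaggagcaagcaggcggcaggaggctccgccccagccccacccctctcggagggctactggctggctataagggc
Such letters are common. ACGTG was found in 16.6% of 32851 promoters of this length and GCGTG in 28.2%, and either one in 38.6% of all promoters and in 44 of the 61 starts of the 40 members that matched the table by symbol (72.1%). Base composition was not matched in these shares. CACGTG, the E-box, which contains ACGTG, stood in 6 of the 61 starts and in 6.02% of all. A match is a description of the letters and not a site in use.

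For comparison, 15 of 16 hypoxia-inducible genes outside glycolysis were tested. In WT 0 were higher and 1 lower (6.96% and 4.6% of all genes), Ddit4, a stress inhibitor of mTOR, which fell by 1.40 (not called under median-ratio scaling, limma adjusted p = 0.0641). In KI 2 were higher and 1 lower (8.57% and 14.7% of all genes). Adm, a vasodilator peptide, rose by 0.79, Kdm3a, a histone demethylase, rose by 0.40, and Egln1, an oxygen sensor, fell by 0.91, a call lost under median-ratio scaling (adjusted p = 0.112). Between the TAC groups 3 were higher in KI TAC, Ddit4, Adm (by 0.89) and Higd1a, a mitochondrial protein (by 0.77), and 1 was lower, Egln3, another oxygen sensor, a call lost under median-ratio scaling (adjusted p = 0.0815), where 2.92% and 8.13% of all genes were. Ddit4 was at 17.1, 69.0 and 24.2 RPKM in WT TAC and 108, 113 and 143 in KI TAC, a difference of 1.94 (limma adjusted p = 0.0169) without overlap.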

How the data were processed

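RNA from hearts of 12 mice was sequenced as strand-specific poly(A) libraries, in single reads. The authors trimmed reads with Trimmomatic 0.39, mapped them with HISAT2 2.2.1 to GRCm38 and counted them on genes with HTSeq 0.6.1, and the labels also name edgeR 3.18.1. The unit of the deposited table is not given in the sources used here. The deposited values were taken as RPKM, since in each mouse they sum to between 997702 and 1002230 after multiplication by exon length (GENCODE M21 lengths for 13546 of 13552 genes). Depth was read from the low values, of which 96.3% to 98.3% were whole reads within 0.05 of a read.

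From these values log2(RPKM + 1) was computed, the 11240 genes that reached 1 RPKM in 3 mice entered, and linear models of limma 3.58.1 (R 4.3.3, moderated with a mean trend) had 1 mean for each of the 4 groups, with Benjamini-Hochberg adjustment over all of them. Ratios of forms were compared by exact permutation tests, two-sided, in Python 3.11.15 with scipy 1.17.1. The model was tested on simulated data in 3 runs, in which 200 of 11236 genes were changed in WT TAC against WT sham. It recovered 100% of 4-fold and 78.7% of 2-fold changes, and 7.35% of its calls were false. The changed genes were drawn from genes above a floor of reads, and all genes were given the same dispersion. No other gene, group or library was shifted, so these rates may not hold for the real data. A second row named Aldoa (0.413 to 1.79 RPKM) was left out.

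All members may be named. Values per mouse are given for called members, at most 12 per comparison by size of change, and for pairs whose ratio did not overlap between groups. At most 4 called genes per further list are named, and some results are not reported here. The members and lists were chosen with earlier results of these data known. Alternatives were a pseudocount of 0.1, no filter, median-ratio scaling, quantile normalization, limma-voom on recovered reads (11236 genes), a fit of the groups compared, an adjusted p of 0.10, a replicate block and leaving out each mouse. Plots were drawn with matplotlib 3.10.9.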

Additional observations from a re-analysis of the deposited data

Results flagged for a closer look

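For 3 of the 15 pairs of forms, the change of the ratio after TAC had an unadjusted p under 0.05 for a difference between genotypes. Genotype labels were permuted within sham and within TAC. No gene passed the interaction by limma, so a difference between the genotypes was not shown. The log2 change after TAC in KI minus that in WT was -0.69 for Pfkl to Pfkm (exact permutation p = 0.025), -1.23 for Eno1 to Eno3 (exact permutation p = 0.045) and -1.12 for Ldha to Ldhb (exact permutation p = 0.03). In WT these ratios rose by 0.67, 1.55 and 1.11, and in KI their changes were -0.02, 0.32 and -0.01. The test covers 15 pairs without adjustment, was added after the ratios had been seen, and a difference between the genotypes in 1 surgery group only would also lower its p. WT TAC mouse 10 had the highest ratio of the 12 hearts in all 3 pairs, together with the highest summed fibroblast markers, 753 RPKM, whose part in the ratios was not tested. The other WT TAC mice, with fibroblast sums of 331 and 162, also lay above every heart of the other groups in each pair.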

How the results depend on the processing

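No member changed direction in a way that reversed a call. Median-ratio scaling gave 3 lower members in KI (7 as deposited), and 12 higher and 0 lower between the TAC groups (5 and 2). A fit of the 2 groups compared gave 4 lower in KI, and 2 higher and 0 lower between the TAC groups. An adjusted p of 0.10 gave 9 higher and 4 lower there, and quantile normalization 1 lower. Leaving out 1 mouse at a time gave 2 to 5 higher and 4 to 7 lower in WT, 4 to 7 higher and 2 to 9 lower in KI, 1 to 6 higher and 0 to 5 lower between the TAC groups, and 0 to 1 for a higher interaction. The lowest counts came without WT sham 2 or 3 or WT TAC 7 (2 higher in WT), WT TAC 7 (4 lower in WT), KI TAC 6 (4 higher in KI), KI sham 2 or 3 or KI TAC 5 (2 lower in KI) and WT TAC 7 or KI TAC 6 (1 higher between the TAC groups). The interaction member was Gfpt2, without WT TAC 9. An adjusted p of 0.10 cannot end a call and was not counted among the alternatives here. Calls that held in all 18 others were Slc2a4, Pfkm, Pfkp, Eno3, Slc16a3 and Pdk2 in WT, Pfkp, Pfkfb2, Slc16a3, Pdp1 and Gfpt2 in KI, and Gfpt2 between the TAC groups. Of these, Slc16a3 entered the test only through the TAC mice in which it was high. The sham groups share mouse numbers 1, 2 and 3 and the TAC groups share number 7 alone, so the number was examined in the sham groups. Deviations of mice with the same number correlated at -0.22, -0.30 and 0.44, so the numbers were not taken to pair the mice, and with the number as a replicate block 0 members were higher and 0 lower. With 3 mice per group, smaller changes may be missed.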

Other observations

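Shuttles that carry reducing equivalents from cytosolic NADH into the mitochondrion were also read. Of 10 genes, 1 was higher and 1 lower in WT (6.96% and 4.6% of all tested genes) and 1 higher and 2 lower in KI (8.57% and 14.7%). Gpd1, the cytosolic glycerol 3-phosphate dehydrogenase, was at 29.9, 21.7 and 23.0 RPKM in WT sham and 35.2, 58.3 and 38.8 in WT TAC, and at 22.4, 23.6 and 22.7 in KI sham and 30.7, 39.8 and 36.9 in KI TAC. No TAC mouse overlapped the sham mice of its genotype, and the rise was 0.78 (limma adjusted p = 0.0262) in WT and 0.62 (adjusted p = 0.0458) in KI. Slc25a11, the oxoglutarate carrier of the malate-aspartate shuttle, fell by 0.80 in WT (limma adjusted p = 0.0297). Gpd1l and Gpd2 fell by 0.82 and 0.49 in KI, the latter not called under median-ratio scaling (limma adjusted p = 0.0663).

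Some hearts stood at the edge of their group for many members at once. KI TAC mouse 5 was the lowest of its group for 34 of the 42 members, KI sham mouse 1 for 30, and WT sham mouse 1 and WT TAC mouse 10 were each the highest of their group for 27. The library factor of median-ratio scaling was also lowest of its group in KI TAC mouse 5. It was highest of their groups in WT sham mouse 1 and WT TAC mouse 10. KI sham mouse 1 went the other way, with the highest factor of its group. No such count over all genes is given here, and the part of library scaling in these counts was not tested.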
